A study of Mus musculus with 9 samples.

Results

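The genes described here are Nfe2l2, which encodes the transcription factor NRF2, its inhibitor Keap1, and 8 genes whose transcription NRF2 is known to drive: Hmox1, Nqo1, Gclm, Gclc, Txnrd1, Srxn1, Slc7a11 and Osgin1. They were picked by name, and these 10 genes are 10 of the 55401 in the count table. All 10 passed the filter on low counts and were among the 16762 genes tested. The libraries were made from the RNA of neonatal mouse ventricular myocytes, primary heart muscle cells cultured from wild-type C57BL/6J pups 1 day old. Control cultures were held at normal oxygen in DMEM with 10% fetal bovine serum. Hypoxia cultures were kept for 6 h in a sealed chamber with an oxygen-absorbing pack, in DMEM without glucose or serum. Hypoxia+rSRGN cultures were treated in the same way, with recombinant serglycin (rSRGN), a secreted proteoglycan core protein, added for the hypoxic period at a dose the labels do not give. Each group had 3 libraries. Against control, low oxygen, loss of glucose and loss of serum cannot be told apart.

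NRF2 is a basic leucine zipper factor that KEAP1 holds in the cytoplasm and hands to a ubiquitin ligase for destruction. Oxidants and electrophiles modify cysteines of KEAP1, NRF2 then escapes, pairs with a small MAF protein in the nucleus and binds antioxidant response elements (AREs) of genes for glutathione synthesis, thioredoxin reduction, haem breakdown and detoxification. Because much of this control acts on the NRF2 protein, the Nfe2l2 transcript is only one layer of it, and protein and nuclear location were not measured here.

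Libraries held 21669017 to 22781557 assigned fragments in control, 16583985 to 18148474 in hypoxia and 16640239 to 20826701 in hypoxia + rSRGN. Cardiomyocyte markers were abundant in control, where 12 of them, Myh6 and Tnnt2 included, summed to between 46600 and 57500 CPM, which are counts set to a common library total and scaled by TMM. In hypoxia the same sum was 4000 to 6210 CPM, and all 12 markers were called lower, meaning that they met the adjusted p and the fold limit used for every call here and stated with the first results. In hypoxia + rSRGN it was 7930 to 8520 CPM. The 8 fibroblast markers, 6 of them called higher in hypoxia, summed to values from 8660 to 10200 CPM in control, between 17100 and 19900 in hypoxia and between 18900 and 19500 in hypoxia + rSRGN. Of the 8 endothelial markers 6 were called lower in hypoxia, and their sum was 74 to 103 CPM in control, 50 to 64.5 in hypoxia and 51.7 to 66.5 in hypoxia + rSRGN. Of the 8 macrophage markers 7 were called lower and 1, Cx3cr1, higher, from a mean of 0.29 CPM in control to 114 in hypoxia. All 8 summed to 38.9 to 48.3 CPM in control, 93.4 to 149 in hypoxia and 118 to 135 in hypoxia + rSRGN. Without Cx3cr1 the sums were 38.7 to 47.7, 9.96 to 11.6 and 11.4 to 14.6 CPM in the same order. The 6 mural cell markers, 1 called higher and 1 lower, summed to 204 to 244, 328 to 338 and 380 to 419 CPM. Neutrophil and red blood cell markers summed to at most 0.626 and 0.591 CPM in any library. In bulk RNA, fewer cells of a type and less RNA per cell cannot be told apart, and the part of these shifts in the results below was not tested. The labels name no separate cultures or litters behind the replicates, so p-values measure the spread between these libraries, which may be technical.

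Promoter windows of 8 of the 10 genes were found in RefSeq on build GRCm38.p6, with 10 windows in all since Txnrd1 has several start sites, and Hmox1 and Gclc were not among them. Each window ran from 250 bases before to 50 bases after a start site and was searched on both strands. The ARE core TGACNNNGC stood in 4 of the 10 windows, of 4 genes (Nfe2l2, Gclm, Txnrd1 and Srxn1), and in 12.4% of all 32851 promoter windows. Sites outside the windows were not searched for. The AP-1 site TGANTCA, which can overlap an ARE, stood in the windows of Srxn1 and Osgin1 and in 7.81% of all windows. In no window of these genes did it overlap a match to TGACNNNGC. Forms of the core with G in place of C after TGA were not searched for. In the letters printed below, the AP-1 site of Osgin1 and the Srxn1 site nearer the start site match such a form. The C/EBP-ATF site TGATGNAA stood 2 times in the window of Slc7a11 and in 3.97% of all windows, and the hypoxia response element core ACGTG stood in those of Keap1 and Gclm and in 19.6% of all windows. The stretches below are shown because they hold an ARE core, an AP-1 site or a C/EBP-ATF site. The letters of these elements are in capitals, either as written or as their reverse complement. The hypoxia response element cores of Keap1 and Gclm are not printed. The ARE core began 240 bases before the start site in Nfe2l2, 134 in Gclm and 92 in Txnrd1. In Srxn1 the AP-1 sites began 102 and 45 bases before the start site, and its ARE core, 28 bases after the start site, is not printed. In Slc7a11 the sites began 66 and 47 bases before the start site, and the AP-1 site of Osgin1 began 97 bases before it.
Nfe2l2, chr2:75704885-75704913, minus strand: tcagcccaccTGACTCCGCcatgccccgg
Gclm, chr3:122245398-122245456, plus strand: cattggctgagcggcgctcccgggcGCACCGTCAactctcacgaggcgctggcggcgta
Txnrd1, chr10:82859089-82859147, plus strand: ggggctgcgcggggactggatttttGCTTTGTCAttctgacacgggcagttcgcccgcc
Srxn1, chr2:152105397-152105510, plus strand: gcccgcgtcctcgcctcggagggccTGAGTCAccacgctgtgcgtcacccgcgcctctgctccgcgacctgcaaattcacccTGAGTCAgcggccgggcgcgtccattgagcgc
Slc7a11, chr3:50443628-50443704, minus strand: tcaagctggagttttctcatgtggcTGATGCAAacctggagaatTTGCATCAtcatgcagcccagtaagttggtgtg
Osgin1, chr8:119437025-119437081, plus strand: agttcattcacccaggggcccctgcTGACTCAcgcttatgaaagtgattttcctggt
All 29 bases of the Nfe2l2 stretch lie within an exon of E030042O20Rik, a noncoding gene on the opposite strand, and the other 5 stretches overlap no exon in GENCODE M21. A match in these letters is a description and not a measured binding site.

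In hypoxia the picture was uneven across the 10 genes. Hmox1, the haem oxygenase that splits haem into biliverdin, iron and carbon monoxide, rose 2.34-fold, and Osgin1, a growth inhibitor induced by oxidative stress, rose 1.80-fold. Keap1 fell to 0.517 of its control level. The other 7 did not reach the call, which asked for at least 1.5-fold and an adjusted p below 0.05 (edgeR quasi-likelihood test, Benjamini-Hochberg over all genes tested). The calls were thus 3 of 10, against 51.6% of all genes tested. By direction, 2 of 10 were called higher against 26.4% of all genes, and 1 of 10 was called lower against 25.1%. At any fold change, 8 of the 10 passed the adjusted p, 6 above and 2 below 0 and 70.9% of all genes did so, a share near that of the 10. Their median log2 fold change was 0.259, beside 0.0537 for all genes tested. Without control replicate 3 it was 0.173, beside 0.0629 for all genes, and 6 of the 10 passed the adjusted p. With library size alone it was 0.327, beside 0.122 for all genes. Control replicate 3 was the lowest control library for every target gene among the 10.

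**Figure D1:**
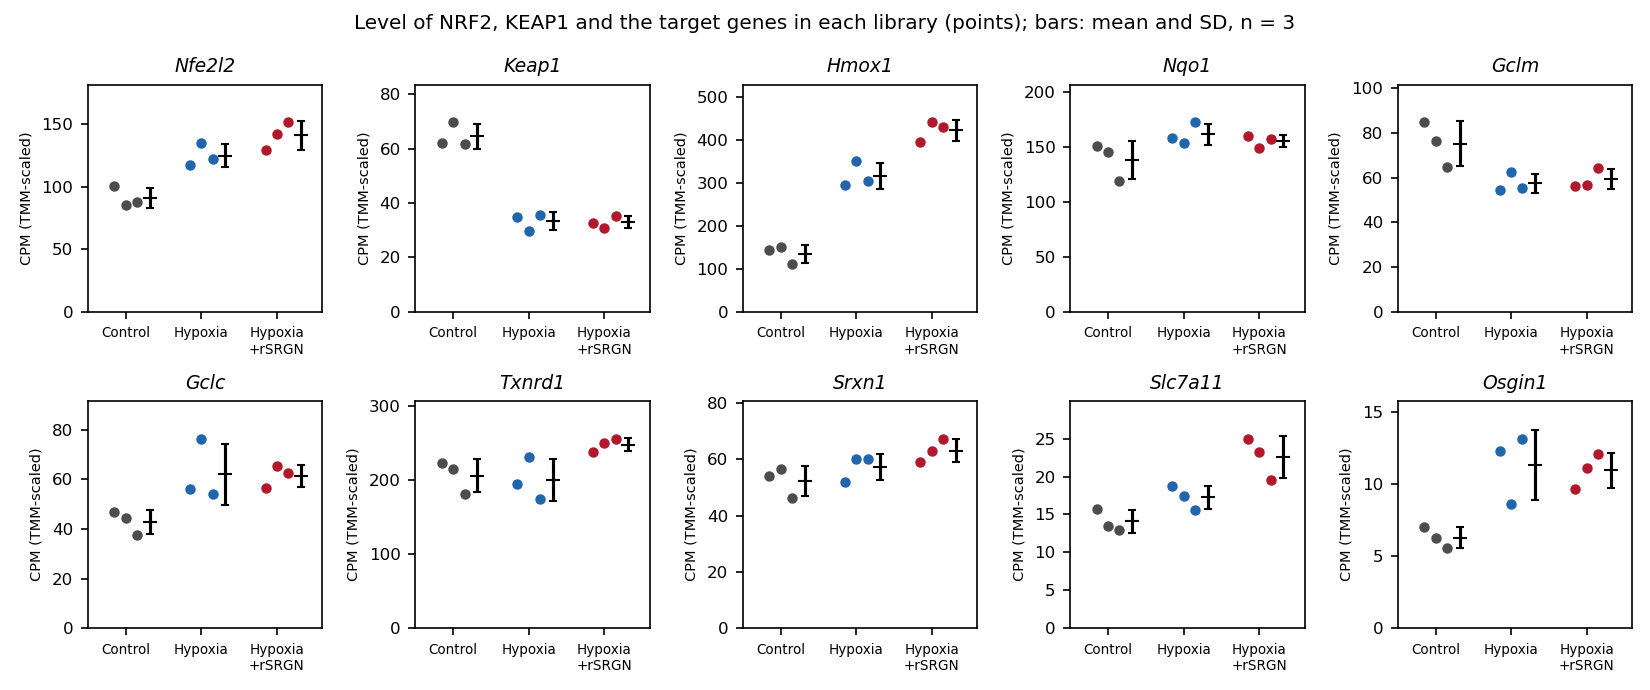
Level of each of the 10 genes in CPM (y axis, from 0) in the 3 libraries of control (grey), hypoxia (blue) and hypoxia + rSRGN (red), with the mean and SD of each group (n = 3) as a black bar. Hmox1 steps up from control (111.9 to 150.1 CPM) to hypoxia (295 to 352) and again to hypoxia + rSRGN (396 to 442), whereas Keap1 sits lower in both hypoxic groups than in control.

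Nfe2l2 (ENSMUSG00000015839.6, chr2:75675513-75704641 on GRCm38, minus strand) encodes NRF2 itself. Its level was 100.1, 85.7 and 87.4 CPM in the control libraries, 117, 135 and 122 CPM in hypoxia, and 129, 142 and 151 CPM in hypoxia + rSRGN. Every hypoxic library stood above every control library, and the hypoxic groups overlapped. Against control, the log2 fold change was 0.45 (SE 0.0826, adjusted p = 4.58e-05) in hypoxia, a 1.37-fold difference below the fold limit. It was 0.63 (SE 0.0824, adjusted p = 6.01e-07) in hypoxia + rSRGN, where Nfe2l2 was called higher. That call rested on 2 libraries in particular, since the log2 fold change came to 0.58 without control replicate 2 and to 0.57 without hypoxia + rSRGN replicate 3, both under the limit.

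Keap1 (ENSMUSG00000003308.15, chr9:21229730-21239361, minus strand) encodes the adaptor that keeps NRF2 short-lived. It was at 61.9, 69.6 and 61.8 CPM in control, at 34.9, 29.5 and 35.5 CPM in hypoxia, and at 32.8, 30.8 and 35.1 CPM in hypoxia + rSRGN. Every control library stood far above every hypoxic one, and the hypoxic groups overlapped. Against control, Keap1 had a log2 fold change of -0.95 (SE 0.0929, adjusted p = 5.64e-09) in hypoxia and of -0.97 (SE 0.0927, adjusted p = 4.44e-09) in hypoxia + rSRGN, and it was called lower in each. Counting took no account of strand, and 10.9% of the exon bases of Keap1 lie opposite the antisense gene Gm16754, whose highest count in any library was 25.

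Set per kilobase of exon and within each library, the ratio of Nfe2l2 to Keap1 was 1.76 ± 0.24 (SD, n = 3) in control, 4.68 ± 0.839 in hypoxia and 5.30 ± 0.421 in hypoxia + rSRGN. Control libraries ranged from 1.52 to 2.00, below the lowest hypoxic library at 4.15, while the hypoxic groups overlapped. These ratios are a description with no test of their own.

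Hmox1 (ENSMUSG00000005413.8, chr8:75093621-75100589, plus strand) moved furthest. It was at 144.3, 150.1 and 111.9 CPM in control, at 295, 352 and 304 CPM in hypoxia, and at 396, 442 and 431 CPM in hypoxia + rSRGN. The groups stood fully apart, and hypoxia + rSRGN was highest. Hypoxia exceeded control by a log2 fold change of 1.23 (SE 0.0954, adjusted p = 1.26e-10), and hypoxia + rSRGN exceeded control by 1.64 (SE 0.0961, adjusted p = 1.14e-12), a 3.12-fold difference.

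Glutathione is made in a first, limiting step by glutamate-cysteine ligase, whose catalytic subunit is encoded by Gclc and whose modifier subunit is encoded by Gclm. The pair did not move alike in hypoxia. Gclc (ENSMUSG00000032350.9, chr9:77754535-77794485, plus strand) was at 46.7, 44.4 and 37.6 CPM in control, at 55.9, 76.3 and 54.0 CPM in hypoxia, and at 56.5, 65.2 and 62.5 CPM in hypoxia + rSRGN. Its hypoxic libraries all stood above control, replicate 2 well above the others. The log2 fold change was 0.53 (SE 0.112, adjusted p = 0.000225) for hypoxia and 0.52 (SE 0.112, adjusted p = 0.000305) for hypoxia + rSRGN, against control, each under the fold limit. It crossed the limit, with 0.60, when the libraries were scaled by size alone, and with 0.60 and 0.62 when hypoxia replicate 1 or 3 was left out. Without hypoxia replicate 2, the highest library, it was 0.35 (adjusted p = 0.00175), the lowest value among the 16 alternatives.

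Gclm (ENSMUSG00000028124.15, chr3:122245557-122270732, plus strand) was at 84.8, 76.2 and 64.9 CPM in control, at 54.5, 62.5 and 55.5 CPM in hypoxia, and at 56.5, 56.9 and 64.6 CPM in hypoxia + rSRGN. All hypoxic libraries stood below all control libraries. The log2 fold change against control was -0.39 (SE 0.093, adjusted p = 0.000787) in hypoxia and -0.34 (SE 0.0926, adjusted p = 0.00235) in hypoxia + rSRGN, neither reaching the fold limit. Of its exon bases, 4.71% lie opposite Gm17494, whose count reached 89. Per kilobase, the ratio of Gclm to Gclc was 1.05 ± 0.0346 (SD, n = 3) in control, 0.563 ± 0.0651 in hypoxia and 0.580 ± 0.0508 in hypoxia + rSRGN. The lowest control library, at 1.03, lay above the highest hypoxic library, at 0.618.

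**Figure D2:**
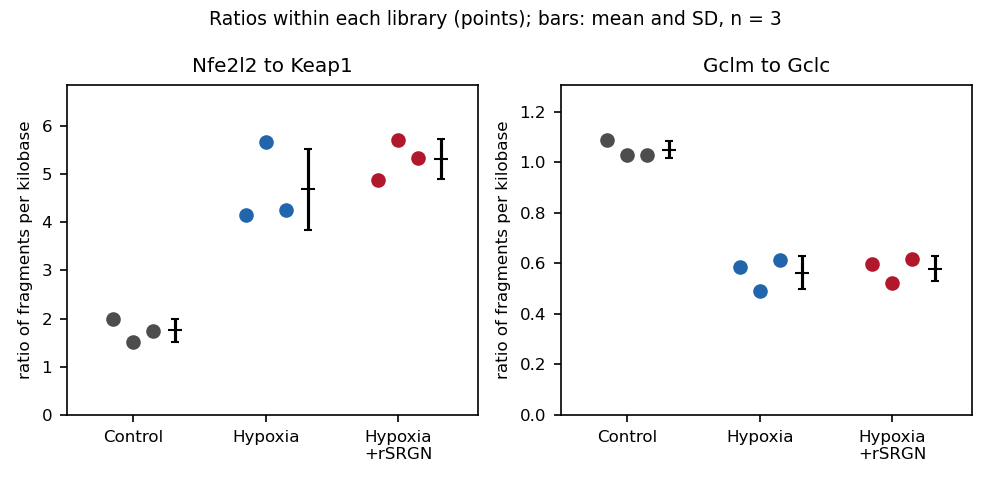
Ratio of Nfe2l2 to Keap1 (left) and of Gclm to Gclc (right), each in fragments per kilobase of exon (y axes, from 0), in every library of the 3 groups, with mean and SD (n = 3) as black bars. The control libraries lie apart from the hypoxic ones on both panels, below them for Nfe2l2 to Keap1 (1.52 to 2.00) and above them for Gclm to Gclc (1.03 to 1.09).

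Slc7a11 (ENSMUSG00000027737.10, chr3:49892526-50443614, minus strand) encodes the cystine importer that feeds glutathione synthesis with cysteine. Its level was 15.7, 13.5 and 13 CPM in control, 18.7, 17.5 and 15.6 CPM in hypoxia, and 24.96, 23.2 and 19.5 CPM in hypoxia + rSRGN. The ends of control and hypoxia touched, at 15.7 and 15.6 CPM, and hypoxia + rSRGN lay above both. In hypoxia the log2 fold change against control was 0.29 (SE 0.12, adjusted p = 0.0338), not called, and the adjusted p was 0.125 without control replicate 2, 0.139 without control replicate 3, 0.129 without hypoxia replicate 1 and 0.0562 without hypoxia replicate 2. Against control, hypoxia + rSRGN was called higher, with a log2 fold change of 0.68 (SE 0.118, adjusted p = 2.84e-05).

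Txnrd1 (ENSMUSG00000020250.10, chr10:82833951-82897712, plus strand) encodes the cytosolic thioredoxin reductase. It was at 222, 215 and 180.3 CPM in control, at 194, 231 and 175 CPM in hypoxia, and at 238, 250 and 255 CPM in hypoxia + rSRGN. Control and hypoxia overlapped, and hypoxia + rSRGN lay above both. The log2 fold change was -0.04 (SE 0.092, adjusted p = 0.698) in hypoxia and 0.27 (SE 0.0918, adjusted p = 0.0138) in hypoxia + rSRGN, against control. The latter rested on single libraries: the adjusted p was 0.13 without control replicate 3 and 0.0556 without hypoxia + rSRGN replicate 3.

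Srxn1 (ENSMUSG00000032802.8, chr2:152105516-152111376, plus strand) encodes sulfiredoxin, which restores over-oxidised peroxiredoxins. It was at 54.0, 56.5 and 46.1 CPM in control, at 51.9, 60.0 and 60.0 CPM in hypoxia, and at 59.0, 62.7 and 67.2 CPM in hypoxia + rSRGN. Only the hypoxia + rSRGN libraries stood clear of control. Srxn1 had a log2 fold change of 0.13 (SE 0.0894, adjusted p = 0.187) in hypoxia and 0.27 (SE 0.0889, adjusted p = 0.0103) in hypoxia + rSRGN, and the latter adjusted p was 0.11 without control replicate 3 and 0.0709 without hypoxia + rSRGN replicate 3.

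Nqo1 (ENSMUSG00000003849.8, chr8:107388225-107403206, minus strand) encodes a quinone reductase and is widely used as a read-out of NRF2. It was at 151, 145 and 119 CPM in control, at 159, 154 and 173 CPM in hypoxia, and at 159.9, 149.6 and 158 CPM in hypoxia + rSRGN. Hypoxia lay above control by a small margin, and hypoxia + rSRGN overlapped both. For Nqo1 the log2 fold change was 0.22 (SE 0.0829, adjusted p = 0.0203) in hypoxia, with an adjusted p of 0.228 without control replicate 3 and 0.0886 without hypoxia replicate 3, and 0.17 (SE 0.0828, adjusted p = 0.0765) in hypoxia + rSRGN.

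Osgin1 (ENSMUSG00000074063.10, chr8:119434124-119446256, plus strand) was the least counted of the 10, with 115 to 231 fragments in a library. It was at 7.06, 6.28 and 5.56 CPM in control, at 12.3, 8.61 and 13.2 CPM in hypoxia, and at 9.65, 11.1 and 12.1 CPM in hypoxia + rSRGN. Both hypoxic groups lay above control and overlapped each other. Osgin1 had a log2 fold change of 0.85 (SE 0.163, adjusted p = 8.39e-05) in hypoxia and 0.80 (SE 0.163, adjusted p = 0.000169) in hypoxia + rSRGN, and the gene was called in each.

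With rSRGN, Hmox1 stood 1.33-fold, Slc7a11 1.30-fold and Txnrd1 1.24-fold above hypoxia alone, and the other 7 genes, Nfe2l2 and Keap1 included, did not pass the adjusted p. None reached the fold limit, so that 0 of the 10 were called by edgeR, beside 3.13% of all genes tested, with 2.27% called higher and 0.859% called lower. At any fold change, 3 of the 10 passed the adjusted p, all of them higher (Hmox1, Txnrd1 and Slc7a11), against 16.6% of all genes in either direction, 10.5% higher and 6.11% lower. Only 1 of the 10 passed it without hypoxia replicate 3 or without hypoxia + rSRGN replicate 1 or 2. These same 3 were the ones whose hypoxia and hypoxia + rSRGN libraries did not overlap, and 32% of all genes tested did not overlap either. The unadjusted p was below 0.05 for 4 of the 10, the 3 above and Nfe2l2, and with DESeq2 0 were called as well. Beside these values, 10 of the 12 cardiomyocyte markers were called higher in hypoxia + rSRGN than in hypoxia, with a median log2 fold change of 0.765, and their part in the result was not tested.

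Hmox1 gave the clearest difference, with a mean of 423 CPM in hypoxia + rSRGN against 317 CPM in hypoxia (log2 fold change 0.42, SE 0.0934, adjusted p = 0.00416). It passed the adjusted p in all 16 alternatives tried, between 7.54e-07 and 0.0326. Slc7a11 was at a mean of 22.5 against 17.3 CPM (log2 fold change 0.38, SE 0.118, adjusted p = 0.0296). Leaving out hypoxia replicate 3 gave it an adjusted p of 0.125, and leaving out hypoxia + rSRGN replicate 1 or 2 gave 0.147 or 0.107. Txnrd1 was at a mean of 248 against 200 CPM (log2 fold change 0.31, SE 0.0921, adjusted p = 0.0248). Its adjusted p was 0.0612 without hypoxia replicate 1, 0.131 without hypoxia replicate 3, and 0.0528, 0.0875 and 0.0742 without hypoxia + rSRGN replicates 1, 2 and 3 in turn. Nfe2l2 itself had a log2 fold change of 0.18 (SE 0.082, adjusted p = 0.153). The other 6 lay between -0.06 for Nqo1 and 0.14 for Srxn1, with adjusted p values from 0.326 to 0.955.

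**Figure D3:**
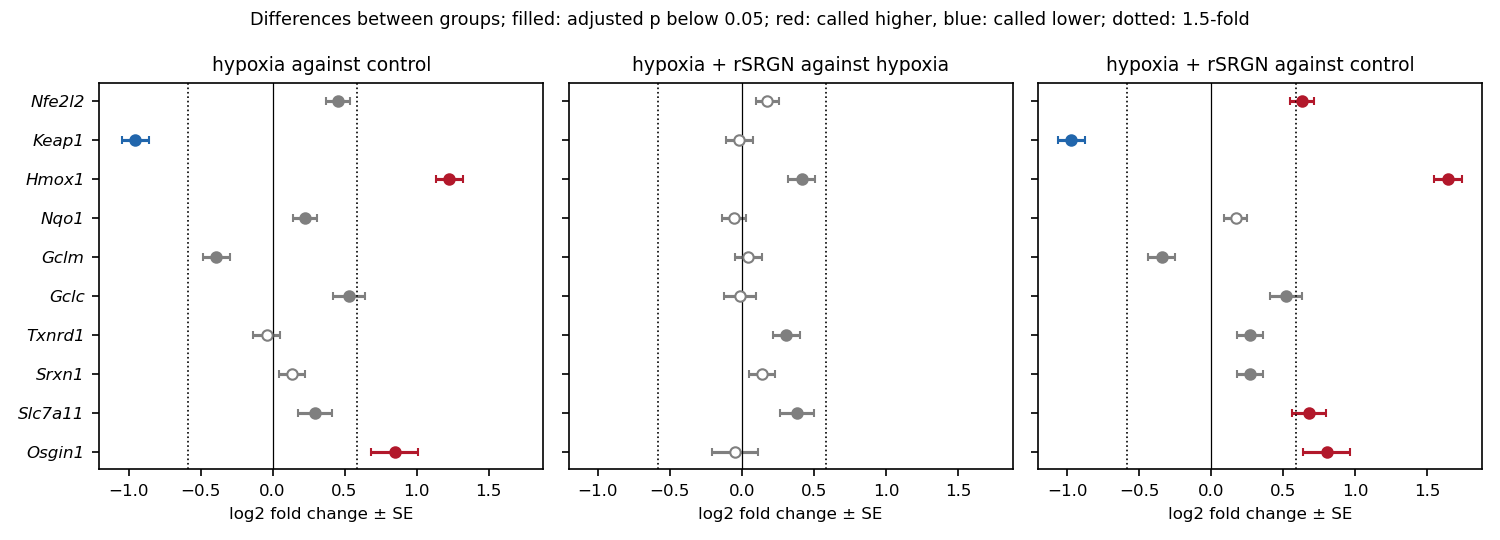
Log2 fold change with its SE (x axis) of the 10 genes for hypoxia against control (left), hypoxia + rSRGN against hypoxia (middle) and hypoxia + rSRGN against control (right); filled points passed an adjusted p of 0.05, red and blue points were called higher and lower, and dotted lines mark 1.5-fold. In the middle panel every point lies inside the dotted lines, and Hmox1, Txnrd1 and Slc7a11 are the filled ones.

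Hypoxia + rSRGN against control shares the control libraries with the first comparison and the hypoxia + rSRGN libraries with the second, so it is not a separate test of either. In it, 5 of the 10 were called, beside 48.8% of all genes tested. Higher calls went to 4 of 10 (Nfe2l2, Hmox1, Slc7a11 and Osgin1) against 24.1% of all genes, and the lower call went to Keap1, 1 of 10 against 24.7%. At any fold change 9 of the 10 passed the adjusted p, against 68.6% of all genes, and Nqo1 was the one that did not. The number was 7 without control replicate 3 or without hypoxia + rSRGN replicate 3, and 10 with library size alone. The median of the 10 was 0.394, beside 0.00762 for all genes tested. It was 0.303 without control replicate 3 and 0.446 without control replicate 1.

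Per kilobase of exon, the 2 most abundant of the 10 in control were Nqo1 and Hmox1, with 89.2 ± 11.1 and 77.4 ± 11.7 FPKM (CPM divided by the exon length in kilobases, mean ± SD, n = 3), whose ranges overlapped. Txnrd1 (29.0) and Nfe2l2 (24.0) followed and overlapped, then Srxn1 (18.5), which stood clear of its neighbours. Keap1 (13.7), Gclm (11.97) and Gclc (11.4) did not differ beyond their spread from 1 to the next, and Osgin1 (2.35) and Slc7a11 (1.01) were lowest. In hypoxia Hmox1 led with 181 ± 17.4 FPKM, ahead of Nqo1 with 104 ± 6.21, and Nfe2l2 (32.8) overlapped Txnrd1 (28.2). Gclc, at 16.5, lay above Gclm, at 9.14, and Keap1 had moved below both, at 7.10. Srxn1, at 20.3, overlapped Gclc. In hypoxia + rSRGN the order was the same as in hypoxia, with Nfe2l2 and Txnrd1 the only overlapping neighbours, Hmox1 at 242 ± 13.7 and Nqo1 at 100.3 ± 3.50 FPKM.

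The genes whose course over the 9 libraries was nearest to that of Nfe2l2 were Rras2, Arl13b and Glud1. Likeness was the root mean square difference in log2 CPM, each gene set to 0 at its control mean, and it was 0.0455, 0.0528 and 0.0549 for these genes out of 14247 compared. Nearest to Hmox1 were B4galt5 (0.0795), Cd44 (0.083) and Irs2 (0.116). Their log2 fold changes in hypoxia were 1.22, 1.16 and 1.14.

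Around NRF2 sit 14 further genes that were listed for acting on it or competing for its site: its ligase and kinase partners, the small MAF proteins it pairs with, the BACH repressors that occupy the same elements, and its relatives Nfe2l1 and Nfe2l3. In hypoxia 4 of the 14 were called higher and 2 lower, beside 26.4% and 25.1% of all genes tested. Their median log2 fold change was -0.0367, beside 0.0537 for all genes. Its sign was not stable, at 0.0315 with library size alone and 0.0193 without hypoxia replicate 1, and it was -0.0837 without control replicate 1 and -0.1 without hypoxia replicate 2. Maff, at 24.0, 25.7 and 26.3 CPM in control, reached 95.2, 114 and 83.2 CPM in hypoxia (log2 fold change 1.94, SE 0.0953, adjusted p = 4.23e-14). Mafk, another small MAF, went from 42.3, 43.0 and 45.0 CPM to 121, 149 and 111 CPM (log2 fold change 1.55, SE 0.0922, adjusted p = 1.23e-12), whereas Mafg, the third, was at a log2 fold change of 0.12 (adjusted p = 0.16). Nfe2l3 rose from under 3 CPM to between 6.02 and 8.004 CPM (log2 fold change 1.82), and the fourth was Syvn1 (0.62), an endoplasmic reticulum ubiquitin ligase that was named after its value was seen.

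The repressor Bach2 fell from 9.12, 11.9 and 11.02 CPM in control to 2.42, 1.79 and 1.22 CPM in hypoxia (log2 fold change -2.55, SE 0.221, adjusted p = 7.94e-10), and Nfe2l1 fell by 0.65 on the log2 scale. Bach1, the repressor of Hmox1 that haem displaces, was at 53.1, 55.0 and 54.6 CPM in control, at 46.4, 46.6 and 41.5 CPM in hypoxia, and at 64.9, 63.1 and 64.4 CPM in hypoxia + rSRGN. Hypoxia was thus lowest and hypoxia + rSRGN highest, with no overlap among the 3 groups. Its log2 fold change was -0.27 (adjusted p = 0.00337) for hypoxia against control and 0.52 (SE 0.0774, adjusted p = 0.000188) for hypoxia + rSRGN against hypoxia, each below the fold limit. Sqstm1, the autophagy receptor p62 that binds KEAP1, was at 598, 612 and 538 CPM in control and at 816, 960.4 and 843 CPM in hypoxia, with a log2 fold change of 0.58 (SE 0.0797, adjusted p = 1.01e-06), just under the limit of 0.585. It overlaps the opposite-strand gene Mrnip over 17.3% of its exon bases. On the lower side Gsk3b, named after its value was seen, also fell just short of the limit in hypoxia. Its log2 fold change was -0.5848 (SE 0.0795, adjusted p = 9.46e-07).

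Against hypoxia, 0 of the 14 were called by edgeR or DESeq2, beside 3.13% of all genes tested. At any fold change 6 passed, by the adjusted and by the unadjusted p, and 16.6% of all genes passed the adjusted p, 10.5% above and 6.11% below 0. Of the 6, Bach1, Maff, Gsk3b, Mafk and Mafg were above 0 and Rbx1 below. Without hypoxia replicate 3 the number of the 14 that passed the adjusted p was 2, and without hypoxia + rSRGN replicate 1 or 2 it was 3. The median of the 14 was 0.189, or 0.125 without hypoxia replicate 3, beside -0.0289 for all genes tested. For the small MAFs the log2 fold changes were 0.36 (adjusted p = 0.00754) for Maff, 0.30 (adjusted p = 0.0225) for Mafk and 0.25 (adjusted p = 0.0247) for Mafg. Each of these had no overlap between hypoxia and hypoxia + rSRGN. Against control, hypoxia + rSRGN had 4 of the 14 called higher and 3 lower, shares near the 24.1% and 24.7% of all genes tested. Their median was 0.0945, 0.142 with library size alone and 0.0523 with every gene of at least 1 count kept, beside 0.00762 for all genes tested. The higher ones were Maff (2.31), Nfe2l3 (2.05), Mafk (1.85) and Sqstm1 (0.68), and the lower ones Bach2 (-2.14), Dpp3 (-0.61), a peptidase that binds KEAP1, and Nfe2l1 (-0.59).

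**Figure D4:**
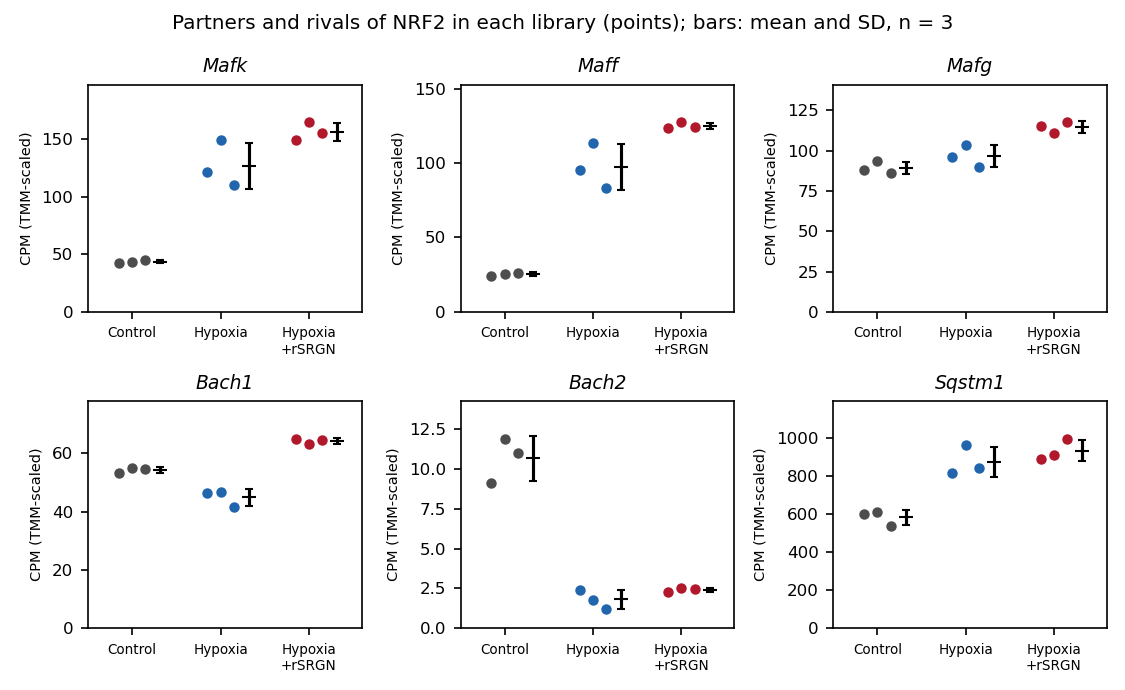
Level in CPM (y axis, from 0) of the small MAF genes Mafk, Maff and Mafg, the repressors Bach1 and Bach2, and Sqstm1 in each library of the 3 groups, with mean and SD (n = 3) as black bars. Mafk and Maff stand far above control in both hypoxic groups, Bach2 far below, and Bach1 is lowest in hypoxia (41.5 to 46.6 CPM) and highest in hypoxia + rSRGN (63.1 to 64.9 CPM).

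A wider list of 34 genes known as NRF2 targets, none of them among the 10, was read alongside; 32 were tested, and Gsta1 and Gsta2 did not pass the filter on low counts. In hypoxia 14 of the 32 were called higher and 4 lower, with a median log2 fold change of 0.446, beside 26.4%, 25.1% and 0.0537 for all genes tested. The detoxification enzymes stood highest, with 6 of 7 called higher and a median of 0.923. Ephx1, the microsomal epoxide hydrolase, rose from between 155 and 169.9 CPM to between 367 and 433 CPM (log2 fold change 1.32, SE 0.0754, adjusted p = 6.04e-13). Ugdh, which makes UDP-glucuronate, rose from between 85.6 and 99.4 CPM to between 199.7 and 224 CPM (log2 fold change 1.21). In glutathione use, 4 of 10 were called higher and 2 lower, led by Mgst1 (1.14), a membrane glutathione transferase.

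The largest falls of that list were Gsta4 (log2 fold change -1.93), a transferase that clears the lipid aldehyde 4-hydroxynonenal, Slc40a1 (-1.25), the iron exporter ferroportin, and Abcc4 (-1.14), an organic anion exporter. Gsta4 went from between 34.3 and 39.4 CPM to between 8.80 and 10.3 CPM, and Slc40a1 from between 28.7 and 38.0 to between 11.2 and 15.3. Slc40a1 is abundant in macrophages, whose markers other than Cx3cr1 fell from a sum of at least 38.7 CPM in control to at most 11.6 CPM in hypoxia. With Cx3cr1 included, the sum rose from at most 48.3 CPM in control to at least 93.4 CPM in hypoxia. The part of these shifts in the result was not tested. For the NADPH-making enzymes 2 of 6 were called higher and 0 lower, for the thioredoxin group 1 of 3 higher and 0 lower, and for iron and haem 1 of 6 higher and 2 lower, beside 26.4% higher and 25.1% lower among all genes tested. Copies close in sequence exist for the ferritin, glutathione transferase, peroxiredoxin and thioredoxin genes, so that single counts among them are uncertain.

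With rSRGN most of the wider list lay slightly below its level in hypoxia. By edgeR and by DESeq2, 0 of the 32 were called. Their median log2 fold change was -0.131, or -0.0868 without hypoxia + rSRGN replicate 1, beside -0.0289 for all genes tested. With RLE scaling it was -0.102, beside -0.000247 for all genes. Of the 32, 28 lay below 0. The number was 28 with library size alone, 27 with RLE scaling, 26 without hypoxia replicate 2 and 25 without hypoxia replicate 3. The share of all genes below 0 was not counted. An unadjusted p under 0.05 was met by 11, and by 7 without hypoxia + rSRGN replicate 1. At any fold change 4 passed the adjusted p, all below 0, or 8 with library size alone, beside 16.6% of all genes in either direction and 6.11% below 0. The 4 are named after their values were seen: Cbr1 (-0.49, adjusted p = 0.00198), Txn1 (-0.27, adjusted p = 0.0122), G6pdx (-0.29, adjusted p = 0.0178) and Gstm2 (-0.27, adjusted p = 0.018). Of the exon bases of G6pdx, 13.6% lie opposite Ikbkg, whose count reached 1642 beside 1195 to 1851 for G6pdx, and the counts do not separate strands. Without hypoxia + rSRGN replicate 1 or 2, the number that passed the adjusted p was 1 or 2. Of the 8 target genes described first, 5 lay above 0 and 3 below, with a median of 0.0913, and with RLE scaling 6 lay above and 2 below. That median was 0.0425 without hypoxia replicate 1, 0.168 without hypoxia replicate 2, and 0.044 without hypoxia + rSRGN replicate 3, where 4 lay above and 4 below. Against control, hypoxia + rSRGN called 12 of the 32 higher, led by Ugdh (1.30), Ephx1 (1.12) and Tkt (1.06), the transketolase of the pentose phosphate path, and 4 lower, led by Gsta4 (-2.12), Slc40a1 (-1.34) and Abcc4 (-0.97), beside 24.1% and 24.7% of all genes tested. The median of the 32 was 0.356, or 0.202 for all 34 with every gene of at least 1 count kept, beside 0.00762 for all genes tested.

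**Figure D5:**
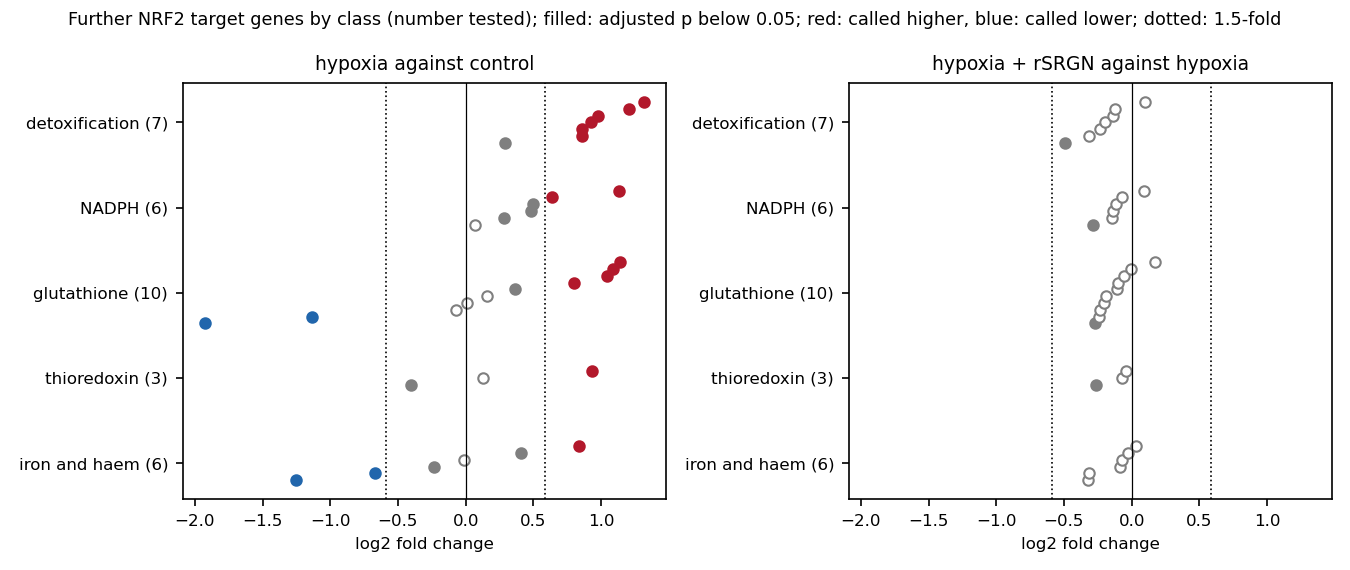
Log2 fold change (x axis) of the 32 tested genes of the wider target list, by class with the number tested in brackets, for hypoxia against control (left) and hypoxia + rSRGN against hypoxia (right); filled points passed an adjusted p of 0.05, red and blue were called higher and lower, and dotted lines mark 1.5-fold. On the left 14 genes are red and 4 blue, and on the right none is coloured and 28 of the 32 lie below 0.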

How the data were processed

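The 9 RNA-seq libraries, 3 in each of control, hypoxia and hypoxia + rSRGN, were grouped by their titles. The deposited table holds the authors' raw counts, whole fragments for each gene. The table's header gives featureCounts 2.0.1 (paired fragments, exons, GENCODE release 25 of the mouse on GRCm38, no strand option), and the submitters' processing notes name HISAT2 and mm10. Counting without strand leaves overlapping genes uncertain.

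Counts were analysed with edgeR 4.0.16 in R 4.3.3: filterByExpr, TMM scaling, 1 mean for each group fitted on the 9 libraries together, and a quasi-likelihood test whose p-values were adjusted by Benjamini-Hochberg over 16762 genes. Calls asked for at least 1.5-fold and an adjusted p under 0.05. SE is the size of the log2 fold change divided by the square root of F. The code was tested on simulated data. DESeq2 1.42.0 was an alternative. Same-numbered libraries were compared for pairing by the correlation of their deviations from group means, from -0.0374 to 0.0215, so no pairing was used. Libraries of a group differed beyond sampling noise. Figures used matplotlib 3.10.9.

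The 10 genes and the lists were chosen with earlier results of these data known. From each list, the 3 largest called rises and falls per comparison were named, plus Bach1, Mafg and Sqstm1, the 3 genes nearest in pattern to Nfe2l2 and to Hmox1 (mean of at least 1 CPM), and markers only where they bore on a gene described.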

Additional observations from a re-analysis of the deposited data

How the results depend on the processing

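Of 480 alternative values for the 10 genes (other test, scaling, filter, samples in the fit, replicate block and each library left out), 459 kept direction and call, 3 gained the call (Gclc), 2 lost it (Nfe2l2) and 16 changed sign, all of them uncalled. Without the fold limit, 8 of the 10 genes passed in hypoxia against control, 3 in hypoxia + rSRGN against hypoxia and 9 in hypoxia + rSRGN against control. By the same step, 4 of the wider targets passed in hypoxia + rSRGN against hypoxia, and 12, 6 and 13 of the 14 control genes passed in the 3 comparisons in that order, where 70.9%, 16.6% and 68.6% of all genes tested did. For hypoxia against control, Txnrd1 turned to 0.0224 with library size alone, and leaving out libraries gave -0.161 to 0.0449. For hypoxia + rSRGN against hypoxia, Keap1 turned to 0.0100 with DESeq2 and with RLE scaling, and Gclc to 0.0146 with DESeq2, to 0.0151 with RLE scaling and to 0.00158 with only the groups compared. Leaving out libraries there gave -0.0960 to 0.0309 for Keap1, -0.0101 to 0.111 for Gclm, -0.103 to 0.163 for Gclc and -0.211 to 0.0687 for Osgin1. The causes were not tested. The replicate numbers only name libraries: with them as a replicate block, the calls among the 10 were 3, 0 and 5, and no call on a member changed. Library size alone put the median of all genes at 0.122 in hypoxia against control. The background count of 525 genes in hypoxia + rSRGN against hypoxia was 899 with an unadjusted p, 2790 without the fold limit and 321 without hypoxia replicate 3. Depth was lowest for Osgin1, with 115 to 231 fragments a library.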
